A study of Gallus gallus with 6 samples.

Results

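The sites described here are regions of the chick genome where H3K27me3 was called both with and without FGF2. None overlapped an H3K27ac peak called by Homer, though such a peak could lie close by. They were chosen by their peak calls. A site is a control H3K27me3 peak called by Homer that shared at least 1 bp with an FGF2 H3K27me3 peak of the same caller and overlapped no Homer H3K27ac peak of either condition. Of 20827 control H3K27me3 peaks, 2998 met this rule. They were 18.2% (95% Wilson interval 17.6 to 18.8%) of the 16447 control H3K27me3 peaks free of H3K27ac, and this count is a description of how the sites were selected. The 21811 H3K27ac-free FGF2 peaks without a control partner, of 32518 FGF2 H3K27me3 peaks, are called FGF2-only sites. The remaining 13449 H3K27ac-free control peaks had no FGF2 partner and are called control-only sites.

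Posterior pre-placodal ectoderm, the source of otic and epibranchial progenitors, was dissected from chick embryos at stage HH6. The explants were grown for 6 h with FGF2 at 0.25 ng/µl or without it (control). The labels give the medium as DMEM, and the methods as DMEM/N2 with DMSO among the additions used, without saying whether the ChIP controls received DMSO. About 100 tissues were pooled for each condition, and nano-ChIP-seq, a protocol for small cell numbers that amplifies the chromatin, gave 1 library per condition and mark beside an input library. Differences between FGF2 and control could therefore not be set against a spread between replicates, no p-value was computed, and all values describe these libraries. The titles and culture conditions name FGF2 for every treated library, whereas the source names of the treated H3K27me3 and input libraries read FGF3 and FGF4. Sex and strain of the embryos were not given in the sources used here. The explants are a mixture of the cells in the dissected region, and a peak list cannot say which of them carried a mark.

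H3K27me3, trimethylation of lysine 27 on histone H3, is written by Polycomb repressive complex 2 and marks silenced genes, among them many regulators of development that are kept off in a given tissue. It can spread over long domains. H3K27ac is acetylation of the same lysine, is found at active promoters and enhancers, and cannot be present on the same histone tail as the methyl mark. A mixed tissue can nevertheless yield both marks at the same position from different cells or alleles.

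The lists give positions without peak heights, and the read depth of the libraries is unknown from them. Wilson intervals cover counting error only, and they are too narrow where neighbouring sites are not independent. A width of 751 bp was given to 2815 of the 2998 sites and another width to 183, and the sites covered 2232.55 kb together. Counting FGF2 peaks in place of control peaks gave 2994 sites. Control H3K27me3 peaks that did overlap H3K27ac had an FGF2 partner more often than the H3K27ac-free peaks, in 1391 of 4380, or 31.8% (30.4 to 33.2%).

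Each of the 2998 shared sites was met by 1 FGF2 peak. The centre of that peak lay a median of 70 bp from the centre of the control peak, within 100 bp at 60.2% and within 300 bp at 85.4% of the sites. The FGF2 centre was at the lower coordinate at 1472 sites, at the higher coordinate at 1508 and at the same base at 18, so that displacement had no common direction along the sequence. A median of 90.7% of the site was covered by the FGF2 peak. Few sites rested on the edge of the rule. At 45 sites the overlap was 75 bp or less, and 46 control-only sites missed an FGF2 peak by 75 bp or less. On the side of acetylation, 8 shared sites had an H3K27ac peak 75 bp away or nearer, and 15 peaks were left out for an overlap with H3K27ac of 75 bp or less.

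**Figure D1:**
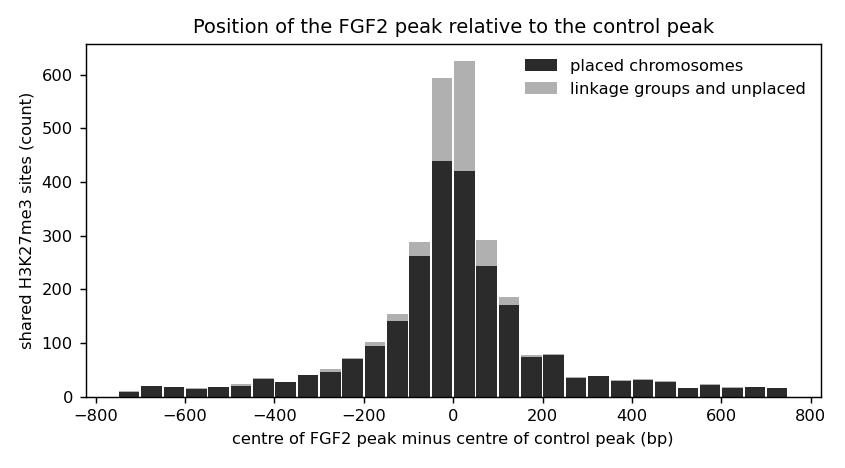
Distance in bp from the centre of the control peak to the centre of the overlapping FGF2 peak (horizontal axis) against the number of shared sites (vertical axis), in classes of equal width, for placed chromosomes (black) and for linkage groups and unplaced sequences (grey, stacked). The counts are highest around 0, 60.2% of the sites lie within 100 bp of it, and both sides are filled about equally.

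The shared sites were spread over 30 placed chromosomes, which held 2493 of them. Another 505 sites (16.8%) lay on 449 linkage-group or unplaced sequences of the assembly, against 6.06% of the FGF2-only and 3.47% of the control-only sites. On these sequences 52.0% (48.8 to 55.1%) of the H3K27ac-free control peaks were shared, or 505 of 972. Most of these sequences are short pieces, and 418 of the 449 carried a single shared site. No Homer H3K27ac peak of either condition was present on the sequences of 436 of the 505 sites. FGF2 and control peaks lay closer together there, with a median of 25 bp between centres against 86 bp on the placed chromosomes. Neighbourhood and distance could not be compared on these pieces, and the descriptions of position that follow use the 2493 placed sites unless stated otherwise.

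Among placed chromosomes, the share of H3K27ac-free control peaks that had an FGF2 partner was 15.9% (15.2 to 16.6%) on chromosomes 1 to 5 and 13.5% (12.2 to 15.1%) on chromosomes 6 to 10. It was 17.2% (15.8 to 18.7%) on the microchromosomes, the small gene-rich chromosomes of birds, which contributed 428 sites. On chromosome Z, the sex chromosome that male birds carry as a pair, 193 of 892 peaks were shared, or 21.6% (19.1 to 24.5%). Chromosome W had 1 shared site among 7 peaks. Density was 2.62 sites per Mb on chromosomes 1 to 5, 2.003 on chromosomes 6 to 10, 2.49 on the microchromosomes, 2.34 on Z and 0.861 on W.

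Chromosomes 27 and 13 stood above the others with at least 100 peaks. On chromosome 27, 48 of 117 peaks were shared, or 41.0% (32.5 to 50.1%), at 9.22 sites per Mb. On chromosome 13, 84 of 329 were shared, or 25.5% (21.1 to 30.5%), at 4.73 per Mb. Part of both values came from dense regions described below, 1 on chromosome 27 and 2 on chromosome 13. Without the regions in which 10 or more shared sites followed each other at distances of at most 20 kb, a choice made after seeing the data, the share was 23.1% (18 of 78, interval 15.1 to 33.6%) on chromosome 27 and 18.3% (54 of 295, interval 14.3 to 23.1%) on chromosome 13. Within chromosome 13, 47 of the 80 H3K27ac-free control peaks up to position 1215317, the end of its last dense region, were shared (58.8%, interval 47.8 to 68.9%), against 37 of 249 beyond it (14.9%, interval 10.98 to 19.8%). That boundary was set by the shared sites themselves, so the contrast follows in part from the choice and is no test. The same chromosome had the widest interval without a shared site, 4.67 Mb from 3949863 to 8617623, although FGF2 H3K27me3 was called 111 times and control H3K27me3 72 times inside it.

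**Figure D2:**
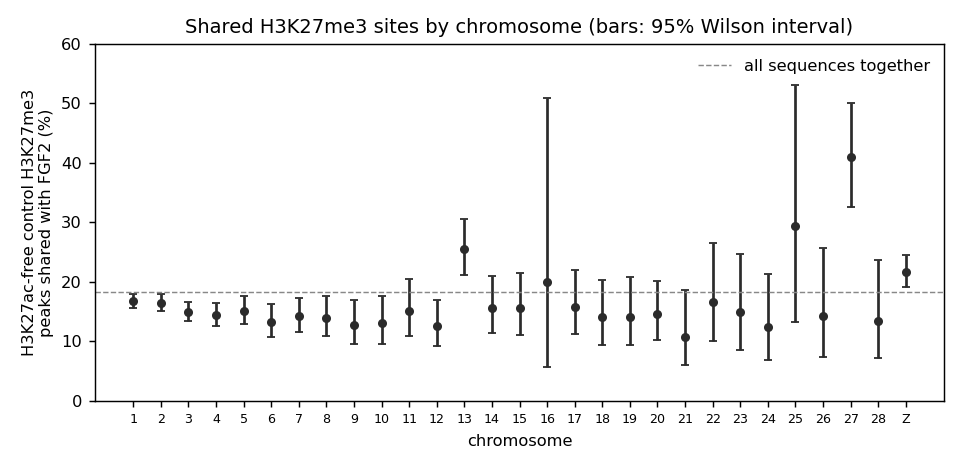
Share of the H3K27ac-free control H3K27me3 peaks that had an FGF2 partner (vertical axis, %) for each placed chromosome except W (horizontal axis), with 95% Wilson intervals as bars and the share over all sequences, 18.2%, as a dashed line. The line includes the linkage groups and unplaced sequences, where 52.0% of peaks were shared and which are not plotted. Chromosomes 27, 13 and Z lie above the line with intervals that do not reach it, and chromosomes 16 and 25 have wide intervals because they hold 10 and 17 peaks.

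Most shared sites stood alone. The median gap between neighbouring sites was 222 kb (quartiles 60.8 and 535 kb), and 237 of 2463 gaps were longer than 1 Mb. Of the 1973 windows of 100 kb that held any shared site, 1612 held 1. When sites no more than 3 kb apart were chained, 159 of all 2998 sites (5.30%, interval 4.56 to 6.16%) belonged to a run, and on placed chromosomes 141 of 2493 (5.66%, interval 4.82 to 6.63%). These formed 47 pairs and 12 longer runs on the placed chromosomes. FGF2-only sites were in runs more often (11.4%), as were control-only sites (7.23%), but there were 20489 and 12982 of these on the same chromosomes and a denser set forms more chains. Their longest runs had 4 sites each, against 5 for the shared sites. At 20 kb the longest runs had 30 shared, 17 FGF2-only and 10 control-only sites. The overlap rule sorted the same peaks into these sets. Where both lists are dense, peaks become shared and drop out of FGF2-only and control-only chains. The lengths of the runs can therefore follow from the rule and are no test.

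A count that does not depend on the size of each set is whether another H3K27me3 peak of any kind lay nearby. Within 3 kb of a shared site the FGF2 list had another H3K27me3 peak in 24.3% (22.6 to 26.0%) of cases, against 16.6% (16.1 to 17.2%) for FGF2-only and 21.5% (20.8 to 22.2%) for control-only sites. In the control list it was 18.5% (17.0 to 20.02%) for shared sites against 13.9% (13.4 to 14.4%) for FGF2-only and 11.4% (10.9 to 11.9%) for control-only sites. Within 10 kb the values were 58.3% for shared, 50.1% for FGF2-only and 50.8% for control-only sites in the FGF2 list, and 45.97% for shared, 37.5% for FGF2-only and 35.5% for control-only sites in the control list. At 50 kb nearly every site had a neighbour in the FGF2 list, 95.3% of shared, 94.3% of FGF2-only and 93.4% of control-only sites. In the control list it was 89.2% (87.9 to 90.3%) of shared, 86.0% (85.5 to 86.4%) of FGF2-only and 85.8% (85.2 to 86.4%) of control-only sites. The share with a neighbour within 3 kb was thus highest for shared sites in both lists. The margin over control-only sites in the FGF2 list was small. The same lists had been used to choose the sites. A control peak in a stretch dense with FGF2 peaks is more likely to overlap one. The difference can therefore follow from the rule and is no test. Sites of different kinds were not counted alike when the list was that of the other condition. A peak that overlapped the site was not counted as its neighbour, whereas a near miss was. Of all 13449 control-only sites, 666 had an FGF2 peak 750 bp away or nearer.

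The 5 longest runs at 3 kb had 5 sites each and lay on chromosomes 27, 9 and 13. The first, at chr27:3559399-3574096, spanned 14.7 kb, and the second, at chr27:3612490-3625590, 13.1 kb. The third, at chr9:11381367-11393156, spanned 11.8 kb, and chromosome 13 held the fourth, chr13:1190461-1202233, and the fifth, chr13:1160431-1170996. A run of 4 sites followed at chr27:3598024-3607236. The other 6 runs had 3 sites each, and the 4 widest of these were chr28:2251697-2257782, chr2:126556611-126562500, chr1:175327853-175333647 and chr2:17291788-17297467. In all 12 runs the control and FGF2 lists had as many H3K27me3 peaks as there were shared sites, so that no call of either condition inside them lacked a partner. Control peaks lay at least 751 bp apart, so gaps of up to 3 kb left little room for a further control call. The equal counts thus follow in part from the spacing of the list. None of the 12 contained a Homer H3K27ac peak, and 3 contained an H3K27ac peak of MACS2, a second caller used on the same reads.

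The runs differed widely in how far they were from H3K27ac peaks called by Homer, to which the distances here refer. The run on chromosome 9 ended 0.089 kb from an FGF2 H3K27ac peak and 2.42 kb from a control one. MACS2 called H3K27ac inside that run, 1 peak in FGF2 and 1 in control. At the other end, the run at chr13:1160431-1170996 was 49.2 kb from H3K27ac of both conditions, and the run at chr27:3559399-3574096 was 48.1 kb from FGF2 and 64.0 kb from control H3K27ac. The median over the 12 runs was 24.3 kb to FGF2 and 33.1 kb to control H3K27ac. No run contained a deposited putative enhancer.

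With 20 kb allowed between neighbours, a gap added after seeing the data, the densest region was on chromosome 27. Between 3522244 and 3672614, over 150 kb, it held 30 shared sites among 38 FGF2 and 42 control H3K27me3 peaks. Its core, chr27:3554869-3640937, was an unbroken chain of 22 sites at gaps of up to 10 kb. In these 86.1 kb all but 2 of 24 peaks were shared on either side, no H3K27ac was called by Homer or MACS2 in FGF2 or in control, and the nearest H3K27ac peak was 15.4 kb away in both. Homer H3K27ac began toward the upper end of the region, with 4 FGF2 peaks and 1 control peak, and 3 putative enhancers were listed there for FGF2 and none for control. In the whole region MACS2 called H3K27ac 2 times in FGF2 and 1 time in control.

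On chromosome 13 the region from 1113786 to 1215317 held 20 shared sites among 23 FGF2 and 22 control H3K27me3 peaks in 102 kb. Neither condition had a Homer H3K27ac peak inside it, and the nearest were 4.89 kb (FGF2) and 4.91 kb (control) from its edge. MACS2 called H3K27ac inside it 0 times in FGF2 and 1 time in control. A further 10 sites lay at chr13:262809-302482. The windows of 100 kb on this chromosome that start at 1, 100001, 200001 and 1100001 held 7, 5, 9 and 18 shared sites and no Homer H3K27ac peak. Up to position 1215317, however, chromosome 13 had 63 FGF2 and 55 control H3K27ac peaks. Dense windows on other chromosomes did hold H3K27ac. The window that starts at chr10:15300001 had 8 shared sites with 10 FGF2 and 5 control H3K27ac peaks. The third region, chr7:15765849-15842941, held 14 shared sites among 21 FGF2 and 21 control H3K27me3 peaks and 1 control Homer H3K27ac peak. MACS2 called H3K27ac in this region 1 time in FGF2 and 1 time in control. These 3 regions were a small part of the whole. In total 14 windows of 100 kb had at least 5 shared sites, and they held 122.

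**Figure D3:**
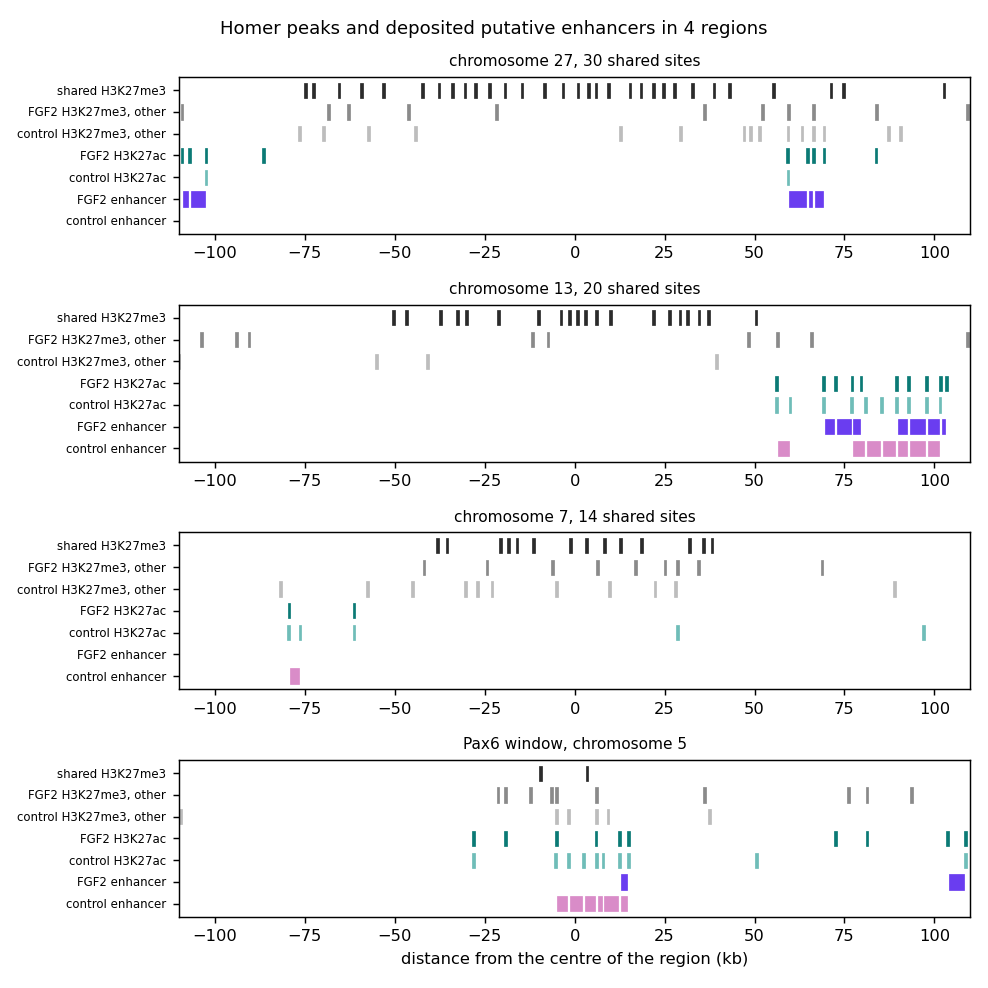
Positions of shared H3K27me3 sites, other FGF2 and control H3K27me3 peaks, H3K27ac peaks and putative enhancers (rows) against distance in kb from the centre of each region (horizontal axis), for the regions with 30, 20 and 14 shared sites and for the window around Pax6. In the first 3 regions the shared sites form long rows. H3K27ac lies inside the upper end of the first region and beyond both its ends. At the second it lies only beyond the upper end, and 1 control H3K27ac peak lies inside the third. At Pax6 the 2 shared sites lie among H3K27ac peaks.

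Shared sites came early in the deposited lists. The sources used here do not state how the Homer lists are ordered, but the share of H3K27ac-free control peaks that MACS2 also called in the control library fell along the control list when it was divided into 10 equal parts (deciles), with 32.6% in the first decile and 0.203% in the last. The shared sites followed the same order. On placed chromosomes 49.3% (46.1 to 52.4%) of the peaks in the first decile had an FGF2 partner, 25.8% in the second, 15.5% in the fifth and 7.81% (6.63 to 9.19%) in the last. The median position was 34.1% of the way down the control list for shared and 57.4% for control-only sites. In the FGF2 list it was 39.6% for shared and 56.9% for FGF2-only sites. The first decile of both lists held 336 of the 2493 sites (13.5%). Of the 505 sites on linkage groups and unplaced sequences, 363 (71.9%) were in the first decile of the control list, against 473 (19.0%) of the placed sites.

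**Figure D4:**
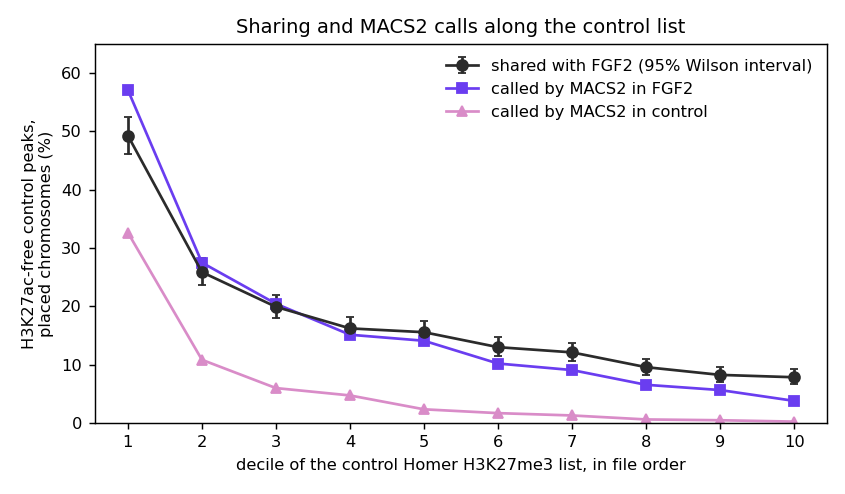
Share of the H3K27ac-free control H3K27me3 peaks on placed chromosomes (vertical axis, %) that had an FGF2 Homer partner (black, with 95% Wilson intervals), or that MACS2 also called in FGF2 (violet) or in control (pink), for each decile of the control list in file order (horizontal axis). All 3 shares are highest in the first decile, at 49.3%, 57.1% and 32.6%, and lowest in the last, at 7.81%, 3.76% and 0.203%.

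The order of the list moved with the neighbourhood of the sites. In the first decile, 36.6% (32.4 to 41.0%) of shared and 23.0% (19.4 to 26.9%) of control-only sites had another control H3K27me3 peak within 3 kb. In the other deciles the values were 14.2% (12.8 to 15.8%) for shared and 10.9% (10.4 to 11.5%) for control-only sites, so the difference was smaller there. Both differences share the limit given above, that the same lists chose the sites. The dense regions lay mostly at the top of the list. All 22 sites of the core on chromosome 27 were in its first decile, as were 17 of the 20 sites on chromosome 13 and 11 of the 14 on chromosome 7.

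MACS2 called broad H3K27me3 peaks at 55.7% (53.8 to 57.7%) of the placed shared sites in FGF2, or 1389 of 2493. The background was 17.0% of all 19578 control Homer peaks on placed chromosomes. FGF2-only sites, which are FGF2 peaks by definition, were called in 41.5%, and control-only sites in 6.99%. In control MACS2 called 279 of 1955 shared sites, 14.3% (12.8 to 15.9%), against a background of 5.19% of control Homer peaks, 0.447% of FGF2-only sites and 2.99% of control-only sites. MACS2 called 12.6% of the shared sites in both conditions. The MACS2 H3K27me3 lists compared for width held 19414 peaks in FGF2 and only 923 in control. The FGF2 and control shares therefore cannot be compared with each other as levels of the mark. The parts of chromosomes 1, 2 and 3 beyond 100 Mb were left out of the control values, because positions in the control MACS2 lists are rounded there. Since FGF2 and control partners were required of the shared sites, these shares describe the same libraries and are no independent evidence of the mark.

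Sites in runs of 3 or more were called more completely than all shared sites together. In FGF2 MACS2 called 45 of 47 (95.7%), and in control 34 of 41 (82.9%), the 6 others lying on rounded positions. Most sites of these runs were in the first decile of the control list. Of all placed shared sites in that decile, MACS2 called 83.9% in FGF2 and 47.0% in control. Membership of a run and position in the list were not separated. The MACS2 peaks over these runs were long. Over the last sites of the first run the FGF2 list had peaks of 4585 and 5339 bp, and the control list a single peak of 20357 bp, chr27:3564473-3584829, which reached beyond the run. On chromosome 13 the longest was an FGF2 peak of 10051 bp at chr13:1195617-1205667, beside a control peak of 4156 bp at chr13:1195427-1199582. Across the core on chromosome 27, MACS2 H3K27me3 covered 70.1% of the sequence in FGF2 and 70.9% in control. The MACS2 peak at a called shared site had a median width of 641 bp in FGF2 and 1253 bp in control. In the whole lists the median was 486 bp and 887 bp. The control widths numbered 279, as many as the called shared sites, so a peak over several sites entered more than once. A wider peak is more likely to overlap a site, so larger widths are favoured by the overlap itself.

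The distance from a shared site to the nearest H3K27ac peak, edge to edge, had a median of 15.2 kb in FGF2 (95% interval 14.3 to 16.5 kb) and 20.8 kb in control (19.5 to 22.2 kb). The Homer list had more H3K27ac peaks in FGF2 (37405) than in control (32725), and the FGF2 peak was the nearer of the pair at 58.8% of shared, 56.3% of FGF2-only and 57.0% of control-only sites. With MACS2 H3K27ac peaks the order turned round, and the medians were 19.7 kb in FGF2 and 14.0 kb in control. The 3 kinds of H3K27me3 site were close in these distances. To FGF2 H3K27ac the median was 15.2 kb for shared and FGF2-only sites and 14.0 kb (13.6 to 14.4 kb) for control-only sites. To control H3K27ac it was 20.8 kb for shared, 19.0 kb (18.6 to 19.5 kb) for FGF2-only and 18.6 kb (18.1 to 19.2 kb) for control-only sites. A distance over 100 kb to FGF2 H3K27ac was found at 8.26% of shared, 6.94% of FGF2-only and 6.49% of control-only sites. The overlap rule had removed the sites at distance 0 from all 3 sets.

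**Figure D5:**
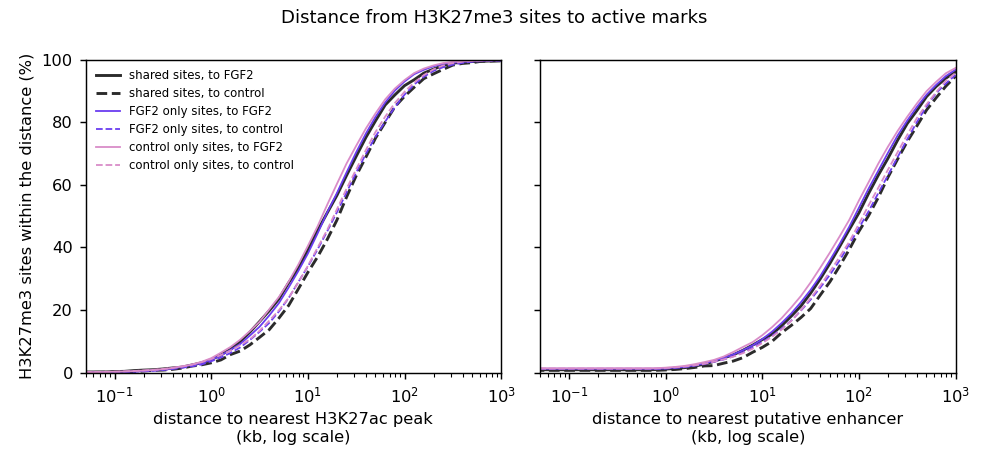
Cumulative share of H3K27me3 sites on placed chromosomes (vertical axis, %) that lie within a given distance (horizontal axis, kb, log scale) of an H3K27ac peak (left) or a deposited putative enhancer (right), for shared (black), FGF2-only (violet) and control-only (pink) sites, measured to FGF2 (solid) and control (dashed) lists. The curves of the 3 kinds of site run close together, with medians to FGF2 H3K27ac of 15.2, 15.2 and 14.0 kb, and those to control lie to the right.

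Distances followed the chromosome more than the kind of site. On microchromosomes the median from a shared site to H3K27ac was 9.05 kb in FGF2 and 10.3 kb in control, on chromosomes 1 to 5 it was 16.9 kb and 23.1 kb, and on chromosome Z 40.3 kb and 49.5 kb. FGF2-only sites on Z had medians of 35.5 kb to FGF2 and 48.4 kb to control H3K27ac, and control-only sites 32.8 kb and 43.8 kb. On microchromosomes 11.9% of shared sites were more than 50 kb from FGF2 H3K27ac, against 6.40% of FGF2-only and 6.89% of control-only sites. Clustered sites near the start of chromosome 13 contributed to this share. Among them were the 7 and 5 shared sites in its windows of 100 kb that start at 1 and 100001. The 6 sites of chr13:1113786-1143745, 76.5 kb from FGF2 H3K27ac, also counted. Sites in a run had a median of 18.0 kb (14.1 to 29.0 kb) to FGF2 H3K27ac and single sites 15.1 kb (14.0 to 16.3 kb), with overlapping intervals.

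The shared site farthest from any H3K27ac peak was chrZ:77289072-77289822, at 1073 kb from the nearest in FGF2 and 1172 kb in control. In all, 15 shared sites were more than 300 kb from H3K27ac of either condition, 13 of them on Z. Of these, 10 lay in chrZ:76000693-78362966, a stretch of 2.36 Mb without a Homer H3K27ac peak that held 13 shared sites. The stretch also held 110 FGF2 and 48 control H3K27me3 peaks, and MACS2 called H3K27ac there 2 times in FGF2 and 7 times in control. Far sites were not confined to the shared set. The greatest distance to FGF2 H3K27ac was 1073 kb for shared, 1164 kb for FGF2-only and 1163 kb for control-only sites. On Z, 32.1% of shared, 23.4% of FGF2-only and 19.9% of control-only sites were more than 100 kb from FGF2 H3K27ac.

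The deposited lists held 12198 putative enhancers for FGF2 and 10674 for control. Putative enhancers had been defined as stretches of up to 3 kb between H3K27ac peaks, without H3K27me3. The deposited lists did not keep to this definition. Only 63.6% of their FGF2 and 63.5% of their control entries were that short, and shared sites lay inside a few. The paper counts far fewer putative enhancers than these lists hold. Overlap with a listed entry therefore does not place a site inside an enhancer counted in the paper. Shared sites lay a median of 94.1 kb from the nearest FGF2 enhancer (86.3 to 103 kb) and 125 kb from the nearest control enhancer (114 to 134 kb). For FGF2-only sites the medians were 90.2 kb and 118 kb, and for control-only sites 83.3 kb and 110 kb. An overlap with an enhancer of either condition was found at 37 of 2493 shared sites, 1.48% (1.08 to 2.04%), against 2.18% (1.99 to 2.39%) of FGF2-only and 2.38% (2.13 to 2.66%) of control-only sites. The overlapped enhancer was listed for FGF2 at 23 shared sites and for control at 18.

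The 37 sites were scattered, and 17 of them were on microchromosomes, which held 428 of the 2493 placed shared sites. Sites of all 3 kinds were nearer to enhancers there. On microchromosomes 2.34% of shared, 3.61% of FGF2-only and 3.79% of control-only sites lay within 1 kb of an FGF2 enhancer. Over all placed chromosomes the values were 1.12%, 1.34% and 1.58%. At 4 of the 37 sites the enhancer was listed in both conditions, chr14:14115409-14116159, chr18:9945110-9945860, chr19:4988656-4989406 and chr24:2205373-2206123. The overlapped enhancers were wide, with a median of 4022 bp in FGF2 and 3935 bp in control, against 2465 bp and 2456 bp in the whole lists, and 8 of the 37 sites overlapped an enhancer of 3 kb or less. The rule itself favours wide enhancers, because a site free of H3K27ac has to fit between the flanking H3K27ac peaks. Enhancers derived again from Homer H3K27ac peaks as gaps of up to 3 kb, with no H3K27me3 exclusion, contained 0.160% of the shared sites in FGF2 and 0.160% in control, whereas gaps of up to 5 kb gave the same shares as the deposited lists, 0.923% in FGF2 and 0.722% in control.

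The rule used Homer H3K27ac peaks alone, and the MACS2 H3K27ac lists gave a further count. MACS2 H3K27ac overlapped 6.75% (5.72 to 7.95%) of the shared sites in FGF2 and 9.57% (8.34 to 10.9%) in control, and 13.5% (12.0 to 15.0%) in either. In either condition it overlapped 10.5% (9.996 to 10.9%) of the FGF2-only and 11.5% (10.9 to 12.1%) of the control-only sites. These sites had no H3K27ac peak by Homer and had one by MACS2.

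Windows around 9 loci were read by eye from browser views, so that their edges are approximate, and 3 of the windows held shared sites. Pax6, a homeobox regulator of lens and eye development, had 2, at chr5:5224750-5225500 and chr5:5237545-5238295. MACS2 called H3K27me3 at both, in FGF2 and in control. The window had 6 H3K27me3 peaks in FGF2 and 6 in control, and 4 H3K27ac peaks in FGF2 against 7 in control. Of its 6 control H3K27me3 peaks, 4 had an FGF2 partner, against 4389 of all 20827 control H3K27me3 peaks. Of the 4 in the window, 2 overlapped H3K27ac and so were left out. The second shared site lay 1.81 kb from FGF2 and 0.186 kb from control H3K27ac, and inside a putative enhancer listed for control, chr5:5237359-5240160. The first was 3.61 kb from FGF2 and 3.38 kb from control H3K27ac.

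Gata3, a zinc-finger factor of ectoderm and ear development, had 1 shared site, chr1:4286692-4287442, which MACS2 called in FGF2 and not in control. The control MACS2 list was far shorter, so the missing call says little about the mark. In the Gata3 window 5 of 7 control H3K27me3 peaks had an FGF2 partner, and the other 4 of these overlapped H3K27ac of FGF2 or control. Eya2, a phosphatase and transcriptional co-factor of placode precursors, had 1 shared site, chr20:5854613-5855363. It was called by MACS2 in both conditions and lay 5.94 kb from FGF2 and 5.92 kb from control H3K27ac. The Eya2 window had 22 H3K27ac peaks in FGF2 and 17 in control, and 6 H3K27me3 peaks in FGF2 and 7 in control. Of these 7 control H3K27me3 peaks, 2 had an FGF2 partner. The partner counts of the windows rest on few peaks and were not tested.

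No shared site was found in the windows of Spry1 and Spry2, which encode feedback inhibitors of FGF signalling, of Foxi3, a forkhead factor of otic and epibranchial precursors, of the homeobox genes Hesx1 and Dlx5/6, or of Cxcl14, a chemokine. H3K27me3 calls in these windows numbered 2 in FGF2 (1 at Spry1 and 1 at Dlx5/6) and 3 in control (2 at Spry1 and 1 at Foxi3). These counts were not set against window length or the density of peaks over the genome. Shared sites lay a median of 222 kb apart, so a window without one is not unusual. In the flanks of 300 kb the number of shared sites was 5 at Cxcl14, 3 at Foxi3, 1 at Spry2, 1 at Hesx1 and 0 at Spry1 and Dlx5/6. The nearest of the Cxcl14 sites, chr13:14669409-14670159, was 5.41 kb from the edge of the window.

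Sequence features had been deposited around FGF response genes. Predicted AP1 sites (the motif bound by Jun and Fos) overlapped 1 shared site, chr7:5209106-5209856, against 9 FGF2-only and 16 control-only sites. DREiVe regions, which are conserved between vertebrates, overlapped 0 shared, 1 FGF2-only and 5 control-only sites. Both lists cover selected genes, and the counts are too small for a comparison.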

How the data were processed

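The authors removed low-quality read ends, mapped the reads to galGal4 by Novoalign, used those with a unique match and called peaks over input in Homer and MACS2. The values used are the deposited positions of peaks, putative enhancers, predicted AP1 sites and DREiVe regions, converted to count from 1, with no heights or counts. The deposited lists named for Homer enhancers repeat H3K27ac peaks and were not used. In the control MACS2 list for H3K27me3, 477 lines were empty. Control MACS2 coordinates beyond 100 Mb (chromosomes 1, 2 and 3) had been rounded, and sites there were left out of comparisons with MACS2 control lists and of MACS2 H3K27ac overlaps.

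Overlap needed 1 bp. Distances ran edge to edge, and runs chained sites no more than 3 kb apart. Intervals of medians rest on order statistics. The steps were tested on simulated peaks. The sites, the measures and the alternatives, which covered overlap, exclusion, gap, caller and enhancer definition, were chosen with earlier results of these data known. Named sites are the 10 longest runs, the site farthest from H3K27ac, and sites in or within 300 kb of 9 locus windows read by eye. Sites named beyond these were chosen after their values were seen. Genes and sequences at other sites were not analysed here, because no galGal4 genome or annotation was used. Calculations used numpy 2.4.6 and scipy 1.17.1 under Python 3.11.15, and plots matplotlib 3.10.9.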

Additional observations from a re-analysis of the deposited data

How the results depend on the processing

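The number of shared sites was 1807 when an FGF2 MACS2 call was also required, against 2998. Runs depended on the gap allowed. The share of all sites in a run was 0.267% at 1 kb, 10.1% at 5 kb, 14.5% at 10 kb and 19.9% at 20 kb, and the runs of 3 or more numbered 0, 23, 37 and 47. The lists hold no control peaks closer than 751 bp, which limits runs at 1 kb. Among sites also called by MACS2 the share in a run was 6.47%. Median distances to H3K27ac by MACS2 were 19.7 kb in FGF2 and 14.0 kb in control, and with Homer on the same sites 14.8 kb and 19.5 kb. The cause was not tested. Enhancers derived at 3 kb contained 0.160% of sites in FGF2 and 0.160% in control. MACS2 covered at least 50% of the site at 32.8% of the shared sites in FGF2. The other 25 values under an alternative stayed within 1.5 times the count or within the interval, among them 2669 sites when 50% of the control peak had to be covered and 4389 without the exclusion of H3K27ac. The gap of 20 kb, the restriction to placed chromosomes for the number of sites, the share of MACS2-called sites in runs, the number of runs without W and unplaced sequences, and, for distances, the unplaced sequences and the Homer values without rounded positions were added after seeing the data. No paired analysis was possible because each condition and mark has 1 library. Depth is unknown, and a missed call cannot be told apart from a missing mark.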
